A study of Mus musculus with 12 samples.

Results

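Each gene in these data has 2 sort effects per tumor, and the comparison described here sets one against the other. The GAL1 sort effect was the log2 CPM (CPM, read counts scaled to the size of each library) of GAL1+ cells minus that of GAL1- cells of the same tumor. The PDGFRA sort effect was that of PDGFRA- cells minus that of PDGFRA+ cells, so that both effects pointed from the PDGFRA-high, GAL1-low side to the other. The difference of the sort effects, GAL1 minus PDGFRA, was taken for 18180 genes in each of 3 tumors (T3, T4 and T5), and all 12 of the 12 libraries entered it. By rules given with each group of genes, 3257 genes were tied to the GAL1 sort, 126 to the PDGFRA sort, 849 followed both sorts equally and 193 went opposite ways. Together 4327 genes were in at least 1 of these classes, 95 of them in more than 1, and 13853 (76.2%) were in none.

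PDGFRA is a receptor tyrosine kinase for platelet-derived growth factors. In the brain it marks oligodendrocyte progenitor cells, which lose it as they mature into myelin-forming oligodendrocytes, and many gliomas express it. Galectin-1, the protein of *Lgals1*, is a small lectin that binds beta-galactoside sugars on cell surface glycoproteins and is abundant in glioma cells, vessels and immune cells.

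The samples were bulk RNA-seq libraries of EGFR+ cells flow sorted from end-stage mouse GBMs, with 4 populations from each tumor: PDGFRA+, PDGFRA-, GAL1+ and GAL1- (labelled PDGFR and Gal1 by the submitters). All 4 groups came from the same model, in mice with constitutive loss of *Cdkn2a*. A Cre lentivirus injected into the striatum switches on human EGFR and a luciferase reporter. The mice were of a mixed background (Balb/cJ, SJL, C57Bl/6J, FVBN/J and 129S4) and aged 6 to 12 weeks at injection. No group was untreated or free of tumor, and each group held 1 library per tumor, so the tumor was the replicate (n = 3). The sorted cells are described in the study as CD45-, while only EGFR, PDGFR and Galectin-1 are named as stained in the account of the sort. In bulk samples, fewer cells of a type and less RNA per cell cannot be told apart.

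Reads recovered from the deposited values ran from 21728280 to 24117541 per GAL1- library and from 9851175 to 18522549 in the other 9 libraries, and the part of this depth gap in the results was not tested. Markers of blood cells were measured in every library, which bears on the CD45- label. The summed level of 15 leukocyte genes was 973 to 2372 CPM in PDGFRA+, 1113 to 4598 in PDGFRA-, 4384 to 5938 in GAL1+ and 129 to 352 in GAL1- cells. The summed level of 16 genes of oligodendrocyte progenitors was 5724 to 8199 CPM in PDGFRA+, 2450 to 5995 in PDGFRA-, 937 to 2708 in GAL1+ and 7444 to 8732 in GAL1- cells. Values by library are given in the order T3, T4 and T5, and a pair of effects is the GAL1 sort effect followed by the PDGFRA sort effect.

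The gene of each sort antigen was measured first. *Pdgfra* stood at 10.81, 10.13 and 9.95 log2 CPM in PDGFRA+ cells and at 10.11, 8.62 and 7.36 in PDGFRA- cells. It stood at 8.95, 6.74 and 7.05 in GAL1+ cells and at 10.81, 10.34 and 10.49 in GAL1- cells. The PDGFRA+ and PDGFRA- groups overlapped, with each tumor lower in its PDGFRA- library, whereas the GAL1 groups did not overlap. The GAL1 sort effect was -2.97 (standard error, SE, 0.41, limma adjusted p = 0.000258) and the PDGFRA sort effect -1.60 (SE 0.41, unadjusted p = 0.00336, adjusted p = 0.249). The difference of the effects was -1.37 (95% interval -2.68 to -0.06) with an adjusted p of 0.101, which did not pass the 0.05 threshold used throughout. It was -1.16, -2.09 and -0.85 in the 3 tumors, and it passed (adjusted p = 0.013) at -1.88 when the PDGFRA- library of T5 was left out.

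*Lgals1* followed the GAL1 sort. Its levels were 7.95, 7.64 and 7.41 log2 CPM in GAL1+ cells against 6.05, 6.28 and 6.81 in GAL1- cells, with no overlap. In PDGFRA+ cells they were 6.41, 6.85 and 7.25 and in PDGFRA- cells 6.99, 6.98 and 7.34, which overlapped. The GAL1 sort effect of 1.29 (SE 0.22, adjusted p = 0.000967) exceeded the PDGFRA sort effect of 0.27 (unadjusted p = 0.260) by 1.02 (SE 0.32, adjusted p = 0.0372), and the difference was positive in each tumor (1.31, 1.23 and 0.50). That call was lost without T3 (adjusted p = 0.101), without T4 (0.235), without the tumor block, without the mean-variance trend and under quantile normalization.

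Across the genome the GAL1 sort effects were the larger of the pair and the more repeatable between tumors. The 90th percentile of the absolute effect was 2.54 (log2) for the GAL1 sort and 0.73 for the PDGFRA sort. The difference of the effects passed the limma test (adjusted p) for 5651 genes, 3010 above 0 (16.6% of all genes) and 2641 below 0 (14.5%). The GAL1 sort effect alone passed for 5254 genes above 0 (28.9%) and 5324 below 0 (29.3%). No gene (0%) passed for the PDGFRA sort in limma, where the smallest adjusted p was 0.181, nor with voom weights on recovered reads, and 2137 had an unadjusted p under the threshold, 1043 above 0 (5.74%) and 1094 below 0 (6.02%). Of the 5651 genes called for the difference, 5545 were also called for the GAL1 sort, all with the same sign, and 106 were not. The difference holds the GAL1 sort effect as a term, so part of this overlap follows from its definition. Leaving out T4 lowered the calls to 1494 above and 402 below 0, and without the tumor block there were 2592.

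**Figure D1:**
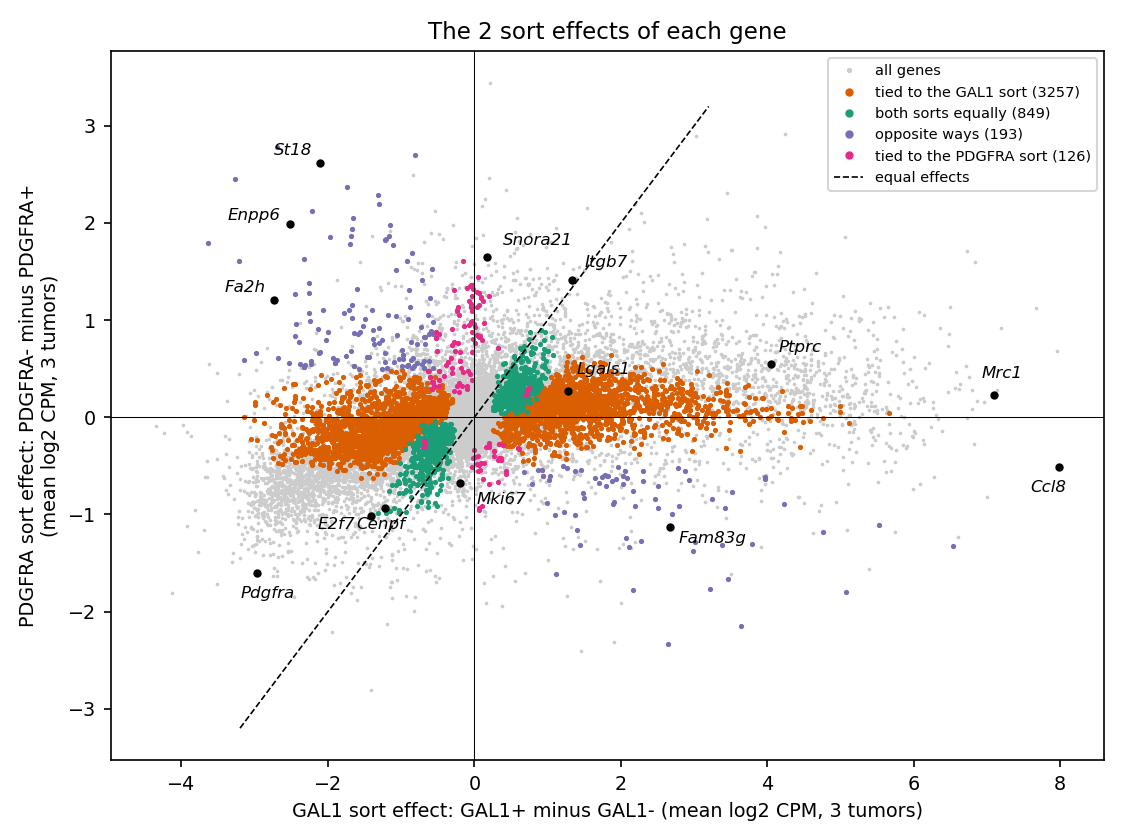
Mean sort effects of 18180 genes over 3 tumors (log2 CPM differences), the GAL1 sort on the horizontal and the PDGFRA sort on the vertical axis, with the 4 classes of genes in colour, named genes in black and a dashed line where both effects are equal. Genes spread along the horizontal axis up to 7.99 for *Ccl8*, while most PDGFRA sort effects lie within 1 of 0.

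The relation between the sort effects was not the same in the 3 tumors. Across genes, Pearson's r of the GAL1 with the PDGFRA sort effect was 0.414 (T3), -0.155 (T4) and 0.618 (T5), and the effects had the same sign in 69.7%, 43.4% and 77.2% of genes. These are descriptions across 18180 genes, which are not independent replicates, and the PDGFRA and GAL1 sorts of a tumor share no library. The GAL1 sort effects of any pair of tumors correlated at 0.849 to 0.869, whereas the PDGFRA sort effects of T3 and T5 correlated at 0.427 and those of T4 at -0.086 with T3 and 0.007 with T5. The GAL1 sort effect had 1 sign in all 3 tumors for 14211 genes (78.2%) and the PDGFRA sort effect for 5507 (30.3%).

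**Figure D2:**
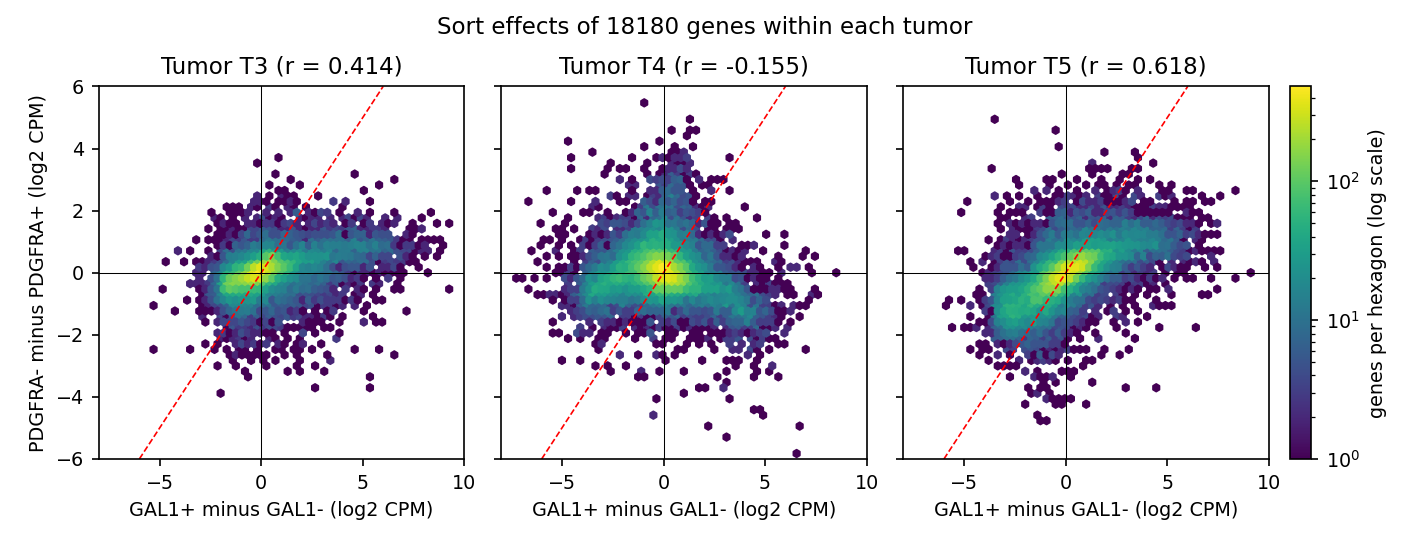
Sort effects of 18180 genes within each tumor (log2 CPM differences), as hexagons coloured by the number of genes on a log scale, with a dashed line where both effects are equal. In T3 and T5 the cloud rises to the right (r = 0.414 and 0.618), and in T4 genes with large GAL1 sort effects lie below 0 on the PDGFRA axis (r = -0.155).

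The 8 largest positive differences were those of genes of macrophages and of secreted or scavenging proteins: *Ccl8*, *Apob*, *Arg1*, *Adamdec1*, *Cxcl13*, *Mrc1*, *Msr1* and *Rnase2a*, from 8.49 to 6.74. *Mrc1*, the mannose receptor of tissue macrophages, stood at 7.65, 7.72 and 8.71 log2 CPM in GAL1+ cells and at -0.59, 1.34 and 2.02 in GAL1- cells. In PDGFRA+ cells it stood at 5.19, 6.39 and 7.08 and in PDGFRA- cells at 5.96, 5.39 and 7.99. The GAL1 groups were far apart and the PDGFRA groups overlapped, with T4 lower in its PDGFRA- library and T3 and T5 higher. The difference of the effects was 6.87 (SE 0.61, limma adjusted p = 0.0013), and it was 7.46, 7.38 and 5.77 in the 3 tumors. *Ccl8*, a chemokine that attracts monocytes, had a GAL1 sort effect of 7.99 against a PDGFRA sort effect of -0.51, but its GAL1- libraries held 3 to 6 reads each. *Arg1*, the arginase of alternatively activated macrophages, had effects of 7.96 and 0.68.

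Genes of leukocytes in general shared this pattern. All 15 pan-leukocyte genes rose more in the GAL1 sort (15 of 15 called above 0, where 16.6% of all genes were), with a median GAL1 sort effect of 4.45, a median PDGFRA sort effect of 0.26 and a median difference of 4.10, beside -0.03, 0.02 and -0.06 over all genes. *Ptprc*, which encodes CD45, was at 8.21, 8.74 and 9.0 log2 CPM in GAL1+ cells, 3.70, 5.18 and 4.94 in GAL1- cells, 6.11, 7.33 and 7.31 in PDGFRA+ cells and 7.08, 6.65 and 8.66 in PDGFRA- cells. Its GAL1+ and GAL1- levels did not overlap and its PDGFRA levels did. The difference was 3.50 (SE 0.53, adjusted p = 0.00199). By tumor the median PDGFRA sort effect of the 15 genes was 0.89 for T3, -1.10 for T4 and 1.20 for T5, and the interval of each was too wide for any of them to enter the class tied to the GAL1 sort. All 15 were called in every leave-out of a tumor and without the block.

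Homeostatic microglia genes were all called above 0 as well (13 of 13), with median effects of 4.71 in the GAL1 and -0.13 in the PDGFRA sort. Of these, *Trem2*, a lipid-sensing receptor of microglia and macrophages, had a difference of 6.34. Of 16 macrophage and monocyte genes, 12 were called above 0 and 1 below. The one below was *Vcan* (-1.74), the matrix proteoglycan versican, which oligodendrocyte progenitors also express. The other 3 were not called. *Gpnmb*, a glycoprotein of macrophages, had effects of 1.82 and -0.13 and a difference of 1.95 (adjusted p = 0.221). *Ly6c2* and *Plac8* had both effects above 0: *Plac8* had a GAL1 sort effect of 2.28 and a PDGFRA sort effect of 2.11, and its difference of 0.17 had an interval of -1.34 to 1.67. In the PDGFRA sort 6 of the 16 genes had an unadjusted p under the threshold above 0 (5.74% of all genes did). Among them was *Ccr2* (effects 4.18 and 1.70). All 19 inflammatory genes of the NF-kB list were called above 0 (median effects 2.83 and 0.15), among them *Il1a* (difference 6.13), the receptor *Tlr2* (5.58) and *Nlrp3* (4.16), the sensor of an inflammasome. The same held for all 11 MHC class II genes (medians 3.48 and 0.20), 21 of 22 lysosome and cathepsin genes (3.21 and 0.10) and 11 of 14 complement genes (4.69 and -0.05). MHC class II calls fell to 3 without the tumor block.

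The lists that were named by the study, and so are not independent of these libraries, went the same way. Of 12 neutrophil chemotaxis genes 11 were called above 0, from 2.35 for *Cxcl3* to 8.49 for *Ccl8*. The one not called was *Cxcr2* (0.65), a chemokine receptor of neutrophils, and 7 were called without T3 or without the block. Of these 12 genes, 4 had an unadjusted p under the threshold above 0 in the PDGFRA sort too (5.74% of all genes did). Of 9 oligodendrocyte differentiation genes, all were called below 0, from -1.64 for *Ptprz1* to -4.82 for *Nkx6-2*, and 4 of 9 were called without T4 or without the block.

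**Figure D3:**
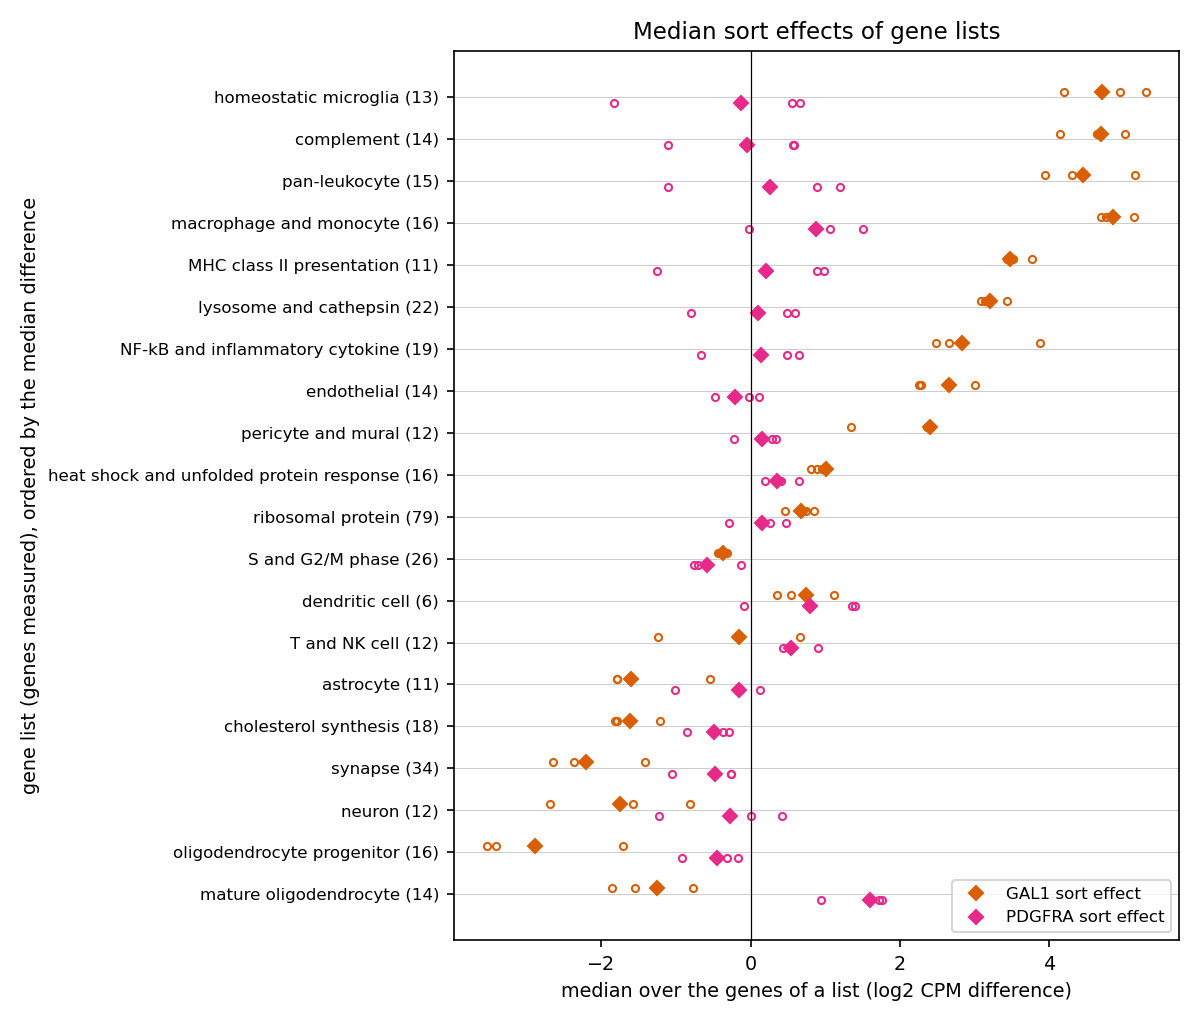
Median sort effect over the genes of 20 lists (log2 CPM difference), with diamonds for the mean effect over tumors, open circles for each tumor and the number of genes measured in parentheses. GAL1 sort medians of the microglia, complement, pan-leukocyte, MHC class II and lysosome lists lie above 3 in each tumor while their PDGFRA sort medians are below 0 in T4 and above 0 in T3 and T5, and the mature oligodendrocyte list has a negative GAL1 and a positive PDGFRA median in each tumor.

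Endothelial genes were also higher in GAL1+ cells, and so were most pericyte and mural genes. All 14 endothelial genes were called above 0 (14 of 14), with a median GAL1 sort effect of 2.65, a median PDGFRA sort effect of -0.21 and summed levels of 198 to 453 CPM in PDGFRA+, 295 to 335 in PDGFRA-, 366 to 518 in GAL1+ and 67 to 124 in GAL1- cells. *Cdh5*, the cadherin of endothelial junctions, stood at 5.71, 5.15 and 4.23 log2 CPM in GAL1+ and 2.43, 2.93 and 1.90 in GAL1- cells, which did not overlap. In PDGFRA+ cells it stood at 5.31, 5.32 and 3.35 and in PDGFRA- cells at 4.99, 4.29 and 3.39. Its difference was 3.05 (SE 0.39, adjusted p = 0.00136). Leaving out T3 or T4 left 8 and 9 of the 14 called, and 5 were called without the block. Of 12 pericyte and mural genes 7 were called above 0, with medians of 2.40 and 0.15, and 4 without the block. The summed level of these 12 genes was 458 to 810 CPM in GAL1+ and 816 to 941 in GAL1- cells, which went against their median. *Cspg4*, also on the oligodendrocyte progenitor list, was called below 0 in the GAL1 sort (-1.73). Of 8 fibroblast genes 3 were called above 0, and 1 without T5 or without the block.

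A gene was put in the class tied to the GAL1 sort when its GAL1 sort effect and its difference passed and the 95% interval of its PDGFRA sort effect lay inside -1 to 1. This rule bounds the PDGFRA sort effect and does not make it 0. By the rules of the other classes, 62 of these genes also followed both sorts equally and 19 were also tied to the PDGFRA sort. *Cd44*, which was in this class only, had effects of 1.28 and 0.63 (limma unadjusted p = 0.000437 for the PDGFRA sort). The 3257 genes of the class (17.9% of all tested) split into 1739 above 0, with median effects of 1.29 and 0.11, and 1518 below 0, with medians of -1.22 and -0.09. Among those above 0 the largest GAL1 sort effects were those of the scavenger receptor *Stab1*, the leukocyte receptor *Slamf7*, the transglutaminase *Tgm2*, the chemerin receptor *Cmklr1* and the amino acid transporter *Slc7a7*. *Stab1* stood at 8.91, 8.41 and 8.09 log2 CPM in GAL1+, 2.05, 3.28 and 3.09 in GAL1-, 6.68, 7.24 and 7.09 in PDGFRA+ and 7.05, 6.28 and 7.80 in PDGFRA- cells. The GAL1 levels were apart and the PDGFRA levels overlapped. Its PDGFRA sort effect of 0.04 had an interval of -0.88 to 0.96, and its difference was 5.62 (SE 0.58, adjusted p = 0.0013). *Stab1* left the class when any 1 tumor was left out.

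The largest effects below 0 in this class belonged to *Dpysl4*, *Slc16a14*, *Ugt8a*, *Sox8* and *Mgat5b*. *Sox8*, a transcription factor of the oligodendrocyte lineage, stood at 4.68, 2.85 and 3.14 log2 CPM in GAL1+ and at 6.46, 6.36 and 6.82 in GAL1- cells. It was at 5.91, 5.66 and 6.06 in PDGFRA+ and at 6.13, 5.79 and 6.19 in PDGFRA- cells, so that only the GAL1 groups were apart. Its PDGFRA sort effect of 0.16 was positive in each tumor, with an interval of -0.58 to 0.90, and the difference was -3.15 (SE 0.47, adjusted p = 0.00189). *Ugt8a*, which makes the galactolipid of myelin, had effects of -3.01 and -0.03. *Dpysl4*, of a family of proteins that bind microtubules in growing neurites, had effects of -3.15 and 0.00 (interval -0.81 to 0.81).

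Genes of oligodendrocyte progenitors fell more in the GAL1 sort, although *Pdgfra* itself chose the cells of the other sort. Of 16 such genes, 14 were called below 0, against 14.5% of all genes, with medians of -2.89 in the GAL1 and -0.45 in the PDGFRA sort. The 2 not called were *Pdgfra* and *Cspg4*. *Olig2*, a master regulator of the lineage, was at 5.26, 3.07 and 3.62 log2 CPM in GAL1+, 7.10, 6.63 and 6.83 in GAL1-, 6.68, 6.38 and 6.18 in PDGFRA+ and 6.64, 5.66 and 5.52 in PDGFRA- cells. The GAL1 groups did not overlap, and the PDGFRA groups did with the PDGFRA- library lower in each tumor. Its difference was -2.39 (SE 0.43, adjusted p = 0.00413). *Olig1*, its close relative, had effects of -2.97 and -0.96. *Gpr17*, a receptor of progenitors that have begun to differentiate, had effects of -3.21 and 0.45. Without T4, 7 of the 16 were called.

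The same direction held for genes outside the lineage. All 18 cholesterol synthesis genes had negative PDGFRA sort effects in each tumor and passed below 0 in the GAL1 sort, and the GAL1 sort effect was the larger in size (medians -1.62 and -0.48). The difference was called below 0 for 16 of 18, among them *Lss* (-1.75) and *Sqle* (-1.64), enzymes of the step from squalene to sterols, but for 3 without T4, for 9 without T3 and for 1 without the block. *Sqle* was at 5.53, 4.20 and 4.18 log2 CPM in GAL1+, 7.18, 6.78 and 6.63 in GAL1-, 6.94, 6.35 and 6.10 in PDGFRA+ and 6.58, 5.93 and 5.13 in PDGFRA- cells. Only its PDGFRA levels overlapped, and the PDGFRA- library was the lower in each tumor. Of 34 synapse genes 22 were called below 0 (medians -2.21 and -0.48), of 12 neuron genes 5, and of 15 neural stem and progenitor genes 6, and without T4 these counts were 3, 0 and 1.

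Genes were said to go opposite ways when the difference passed, the GAL1 sort effects had one sign and the PDGFRA sort effects the other in all 3 tumors, and both mean effects were at least 0.5 in size. This class held 193 genes (1.06% of all tested), 121 with a lower level in GAL1+ and a higher level in PDGFRA- cells (median effects -1.37 and 0.87) and 72 the other way (2.08 and -0.78). Of 14 mature oligodendrocyte markers 10 were in this class. Of the 14, 11 were called below 0 for the difference and 1 above, with medians of -1.26 in the GAL1 and 1.60 in the PDGFRA sort. The PDGFRA sort median was 0.95, 1.76 and 1.71 by tumor, so T4 went with the other tumors here. The list's summed level was 763 to 1127 CPM in PDGFRA+, 1329 to 2095 in PDGFRA-, 1117 to 1576 in GAL1+ and 653 to 1042 in GAL1- cells, and its higher sum in GAL1+ cells went against its median. *Trf*, the iron carrier transferrin, which macrophages also make, was the member called above 0 and was at 9.63, 9.95 and 10.39 log2 CPM in GAL1+ against 4.63, 7.07 and 6.05 in GAL1- cells.

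The 8 largest negative differences, from -4.73 to -3.65 among genes with a mean log2 CPM of at least 1, were those of *St18*, *Enpp6*, *Fa2h*, *Kndc1*, *Map6d1*, *Myrf*, *Gpr17* and *Shisal1*. *Enpp6*, a choline phosphodiesterase of newly forming oligodendrocytes, showed the opposite course plainly. It stood at 3.81, 3.02 and 3.23 log2 CPM in PDGFRA+ and at 5.28, 5.13 and 5.61 in PDGFRA- cells. In GAL1+ cells it stood at 2.79, 1.46 and 1.88 and in GAL1- cells at 4.56, 4.89 and 4.22. Neither pair of groups overlapped. The effects were -2.51 for the GAL1 and 1.99 for the PDGFRA sort (unadjusted p = 7.16e-05, adjusted p = 0.202), and the difference was -4.50 (SE 0.42, adjusted p = 0.0013).

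*Myrf*, the transcription factor that switches on myelin genes, was at 5.15, 4.66 and 4.97 log2 CPM in PDGFRA+, 5.91, 6.08 and 6.60 in PDGFRA-, 4.20, 2.39 and 3.28 in GAL1+ and 5.55, 5.77 and 5.91 in GAL1- cells. Neither pair overlapped, and the difference was -3.72 (SE 0.48, adjusted p = 0.00133). *Mbp*, myelin basic protein, was at 6.99, 6.67 and 7.01 in PDGFRA+, 8.04, 7.79 and 8.26 in PDGFRA-, 6.35, 6.30 and 6.45 in GAL1+ and 6.72, 7.49 and 7.54 in GAL1- cells, again without overlap. Its effects of -0.88 and 1.14 gave a difference of -2.02 (SE 0.27, adjusted p = 0.00144). *Fa2h*, which hydroxylates myelin lipids, had effects of -2.73 and 1.20, and *Nfasc*, an adhesion protein of the node of Ranvier, -2.68 and 0.61. *Mog* was a low count gene, with 1 of its GAL1+ libraries at 3 reads or fewer, and had effects of -2.70 and 2.78.

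In the other direction, genes higher in GAL1+ but lower in PDGFRA- cells included *Cd34*, *Wnt11*, *Spock1* and *Fam83g*. *Cd34*, a sialomucin of vessels and progenitors, was at 5.80, 6.54 and 6.48 log2 CPM in GAL1+, 1.53, 3.05 and 2.32 in GAL1-, 5.03, 5.78 and 5.12 in PDGFRA+ and 4.67, 4.38 and 4.98 in PDGFRA- cells, and neither pair overlapped. Its difference was 4.61 (SE 0.41, adjusted p = 0.0013), made of a GAL1 sort effect of 3.97 and a PDGFRA sort effect of -0.63, which was -1.40 in T4 and -0.36 and -0.14 in T3 and T5. *Fam83g* was at 2.90, 2.30 and 3.38 in GAL1+, -0.31, 0.23 and 0.64 in GAL1-, 1.62, 1.78 and 2.87 in PDGFRA+ and 1.03, 0.30 and 1.56 in PDGFRA- cells. Neither pair overlapped and each tumor went the same way, with a difference of 3.80 (SE 0.40, adjusted p = 0.0013). *Wnt11*, a secreted ligand, had effects of 3.25 and -0.84 and *Spock1*, a secreted proteoglycan, 2.80 and -0.91. Without T4, *Cd34*, *Wnt11*, *Spock1* and *Ccl8* left the class and *Fam83g* stayed in it.

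**Figure D4:**
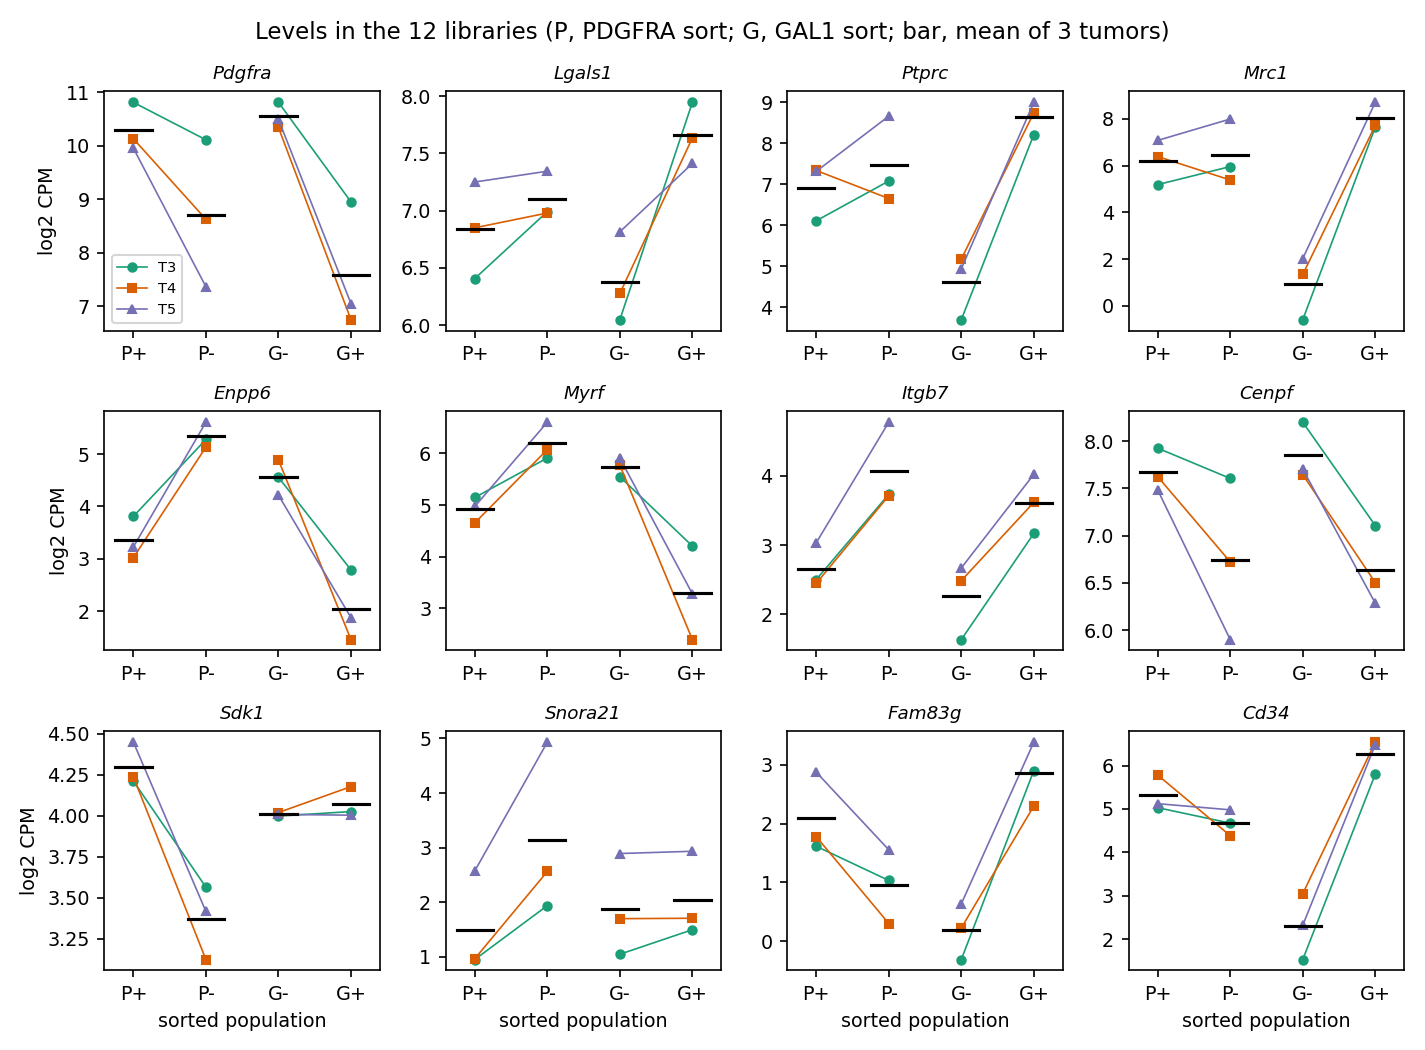
Log2 CPM of 12 genes in the 12 libraries, each panel with its own scale, with P+ and P- for PDGFRA+ and PDGFRA- cells, G- and G+ for GAL1- and GAL1+ cells, lines joining the libraries of a tumor within a sort and bars for the mean of 3 tumors. *Ptprc* and *Mrc1* are separated by the GAL1 sort, *Enpp6* and *Myrf* go up in one sort and down in the other, *Itgb7* and *Cenpf* go the same way in both, and *Sdk1* differs in the PDGFRA sort while its GAL1 levels lie between 4.00 and 4.18.

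Genes that followed both sorts equally were those with a called GAL1 sort effect, 1 sign for both effects in all 3 tumors and a 95% interval of the difference inside -1 to 1, so equality is stated only within that bound. There were 849 (4.67% of all tested), 424 above 0 (median effects 0.56 and 0.26) and 425 below 0 (-0.60 and -0.31). Few were large: of 6348 genes with a called GAL1 sort effect of at least 1 in size, 23 were in this class. *Itgb7*, the integrin beta chain that pairs with the alpha chains of gut-homing and tissue-resident lymphocytes, had the largest GAL1 sort effect above 0 among the genes named. It stood at 3.17, 3.62 and 4.02 log2 CPM in GAL1+, 1.63, 2.49 and 2.67 in GAL1-, 2.50, 2.45 and 3.04 in PDGFRA+ and 3.74, 3.71 and 4.78 in PDGFRA- cells. Neither pair overlapped, the effects were 1.34 and 1.41, and the difference was -0.07 (95% interval -0.73 to 0.58). Next came *Nedd4l*, a ubiquitin ligase (effects 1.08 and 0.64), *Tent5a*, a terminal nucleotidyltransferase (1.06 and 0.83), *Hbp1*, a transcriptional repressor that restrains cell division (1.00 and 0.68), and *Gmppb*, an enzyme that makes the mannose donor for glycosylation.

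On the negative side the class was led by genes of cell division: *E2f7*, *Cenpf*, *Kif14* and *Gtse1*, with *Egfem1*. *Cenpf*, a protein of the kinetochore, was at 7.11, 6.50 and 6.29 log2 CPM in GAL1+, 8.20, 7.65 and 7.70 in GAL1-, 7.93, 7.62 and 7.48 in PDGFRA+ and 7.61, 6.72 and 5.90 in PDGFRA- cells. The GAL1 groups did not overlap, the PDGFRA groups did, and each tumor was lower in its PDGFRA- library. The effects were -1.22 and -0.93 and the difference -0.28 (interval -0.96 to 0.39). *E2f7*, a transcription factor that represses genes late in the cycle, had effects of -1.41 and -1.02 and a difference of -0.39 (interval -0.93 to 0.15). *Gtse1*, a mitotic protein, had effects of -1.16 and -0.76 (interval of the difference -0.90 to 0.09). Without T4, *Cenpf*, *E2f7* and *Gtse1* all left the class.

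Genes of the S and G2/M list had mostly lower levels in PDGFRA- cells and mixed GAL1 sort effects. Of its 26 genes, 11 were in the class of equal effects (4.67% of all genes were), 22 had an unadjusted p under the threshold below 0 in the PDGFRA sort (6.02% of all genes did), and none was called for that sort. In the GAL1 sort 12 were called below 0 (29.3% of all genes were) and 3 above (28.9%). The median effects were -0.36 and -0.58, with PDGFRA sort medians of -0.13, -0.76 and -0.71 by tumor. Some mitotic genes, such as *Ccnb1* (-1.09 and -0.93), *Aurka* (-0.78 and -0.69) and *Plk1* (-0.93 and -0.75), had nearly the same effect in each sort. Others had a smaller GAL1 sort effect that was not called, such as *Aurkb* (-0.16 and -0.66), *Bub1* (-0.11 and -0.43) and *Cdk1* (-0.28 and -0.59). The 3 genes called above 0 in the GAL1 sort were also the 3 called for the difference, all above 0. They were *E2f1* (1.03), *Pcna* (0.90), the sliding clamp of DNA synthesis, and *Mcm3* (0.66), a subunit of the replicative helicase. None of the 3 was called without T4, where the list had 0 calls. Other genes of DNA synthesis on the list did not share this. *Rrm1* (-0.37 and -0.47) and *Rrm2* (-0.61 and -0.67) were called below 0 in the GAL1 sort and were in the class of equal effects. *Mcm2*, *Mcm4*, *Mcm5*, *Mcm6* and *Tyms* were called neither for the GAL1 sort nor for the difference.

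The promoters of *Cenpf*, *E2f7* and *Gtse1*, from the class of equal effects, are shown, with that of *Mrc1* for contrast. Each is the 250 bases before the start of the gene in RefSeq's annotation of GRCm38.p6, an older build than the mm39 used for the reads, in the direction of transcription. Capitals mark the letters of 3 motifs searched on both strands: CCAAT or ATTGG (the box bound by NF-Y), TTTGAA or TTCAAA (the CHR element of cell cycle genes) and GAGGAA or TTCCTC (the core bound by PU.1, a factor of myeloid cells). *Cenpf* lies at chr1:189688087-189688336 on the minus strand, *E2f7* at chr10:110745189-110745438, *Gtse1* at chr15:85859457-85859706 (1 of 2 starts listed) and *Mrc1* at chr2:14229164-14229413, all on the plus strand.
Cenpf: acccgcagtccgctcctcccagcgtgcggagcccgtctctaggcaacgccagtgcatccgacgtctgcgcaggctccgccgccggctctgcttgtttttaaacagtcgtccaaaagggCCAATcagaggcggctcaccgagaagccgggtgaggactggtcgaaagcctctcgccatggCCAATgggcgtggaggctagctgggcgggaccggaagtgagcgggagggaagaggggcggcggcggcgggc
E2f7: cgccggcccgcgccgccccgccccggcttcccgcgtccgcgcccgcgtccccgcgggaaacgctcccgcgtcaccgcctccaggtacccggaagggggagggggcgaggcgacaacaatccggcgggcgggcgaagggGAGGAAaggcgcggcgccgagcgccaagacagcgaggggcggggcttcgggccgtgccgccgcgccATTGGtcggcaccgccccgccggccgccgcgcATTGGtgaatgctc
Gtse1: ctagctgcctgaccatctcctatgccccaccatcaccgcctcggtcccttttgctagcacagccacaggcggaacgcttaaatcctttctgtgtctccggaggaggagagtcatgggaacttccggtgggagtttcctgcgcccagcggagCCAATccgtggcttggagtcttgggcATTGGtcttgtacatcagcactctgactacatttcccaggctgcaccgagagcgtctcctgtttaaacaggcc
Mrc1: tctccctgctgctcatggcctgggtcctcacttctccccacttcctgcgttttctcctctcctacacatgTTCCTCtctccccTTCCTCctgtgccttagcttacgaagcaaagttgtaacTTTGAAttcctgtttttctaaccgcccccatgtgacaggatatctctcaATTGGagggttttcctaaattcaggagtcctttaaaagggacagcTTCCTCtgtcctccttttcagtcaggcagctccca

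*Cenpf*, *E2f7* and *Gtse1* each held 2 CCAAT boxes in this window and no TTTGAA, and *E2f7* also held 1 GAGGAA core. *Mrc1* held 3 GAGGAA cores, 1 CCAAT box and 1 TTTGAA. Of 12222 genes with a RefSeq promoter (67.2% of the 18180), 36.2% held CCAAT, 11.3% TTTGAA and 23% GAGGAA. In the S and G2/M list 86.4% of 22 promoters held CCAAT and 27.3% TTTGAA. In the class of equal effects below 0, 45% of 329 promoters held CCAAT and 16.4% TTTGAA, and in the class above 0, 33.3% of 324 held CCAAT. Of 1257 promoters of genes tied to the GAL1 sort above 0, 24.5% held GAGGAA, close to the share of all genes. Neither *Mrc1* nor any pan-leukocyte gene was in that class. By list, GAGGAA was in 6 of 12 pan-leukocyte, 3 of 8 homeostatic microglia, 2 of 10 mature oligodendrocyte and 3 of 13 oligodendrocyte progenitor promoters. A match is a description of the letters only.

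Some stress genes followed both sorts and some the GAL1 sort. Of 16 genes of heat shock and the unfolded protein response, 13 were called above 0 in the GAL1 sort (28.9% of all genes were). In the PDGFRA sort 9 had an unadjusted p under the threshold above 0 (5.74% of all genes did). The inducible chaperones *Hspa1a* (1.62 and 1.14) and *Hspa1b* (1.63 and 1.14), near-identical copies whose reads are hard to tell apart, had similar effects in both sorts, and so did *Hsp90aa1* (0.44 and 0.45). The difference was called above 0 for 7 genes, which included the endoplasmic reticulum proteins *Sdf2l1* (1.48), *Herpud1* (1.33) and *Hspa5* (0.73). No call was left without T4. Of 79 ribosomal protein genes 74 were called above 0 in the GAL1 sort, where 28.9% of all genes were (median 0.67, beside 0.15 in the PDGFRA sort). The difference was called above 0 for 14 of the 79, a share near the 16.6% of all genes. It was called for 30 without the PDGFRA- library of T5, for 4 without T3, for 1 without T5, and for 0 without T4 or without the block.

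A gene was put in the class tied to the PDGFRA sort when its PDGFRA sort effect and its difference had an unadjusted p under the threshold, the PDGFRA sort effect had 1 sign in all tumors and the 95% interval of its GAL1 sort effect lay inside -1 to 1. Unadjusted values were used because no gene passed for the PDGFRA sort after adjustment. The class held 126 genes (0.693% of all tested), 89 higher in PDGFRA- cells (median PDGFRA sort effect 0.81, GAL1 sort effect -0.08) and 37 lower (-0.42 and 0.13), and the difference passed after adjustment for 64 of them. Without the block it held 22.

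Short non-coding RNAs were frequent among the 89. By RefSeq's gene types, 32 of the 89 (36%) were small nucleolar, small nuclear or similar short RNAs, which make up 1.19% of all genes measured (216). None of the 1739 genes above 0 in the class tied to the GAL1 sort was of these types. *Snora21*, a small nucleolar RNA that guides pseudouridylation, stood at 0.95, 0.96 and 2.57 log2 CPM in PDGFRA+ and at 1.94, 2.56 and 4.93 in PDGFRA- cells. It stood at 1.49, 1.70 and 2.93 in GAL1+ and at 1.05, 1.70 and 2.89 in GAL1- cells. Levels differed between tumors and both pairs of groups overlapped, but the PDGFRA- library was the higher in each tumor. The effects were 0.17 and 1.65, and the difference was -1.48 (SE 0.42, adjusted p = 0.0249).

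*Rn7sk*, an abundant RNA that holds the elongation factor P-TEFb inactive, was at 10.14, 10.85 and 11.97 log2 CPM in PDGFRA+ and 10.88, 11.86 and 12.51 in PDGFRA- cells, and its GAL1 sort effect was 0.01 (difference -0.75, adjusted p = 0.0391). Over all 216 short RNAs the median PDGFRA sort effect was 0.59, and 0.61, 0.43 and 0.68 by tumor, beside a median GAL1 sort effect of 0.03. Of the 216, 22 were called below 0 for the difference (14.5% of all genes were) and 3 above (16.6%). In the PDGFRA sort 72 had an unadjusted p under the threshold above 0 (5.74% of all genes did), against 2 below (6.02%). T4 went with the other tumors here. Many of these RNAs, such as *Rnu2-10*, a copy of the U2 spliceosomal RNA, have near-identical copies among which reads were split as fractions, so single genes are uncertain. 

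Among protein-coding genes of this class, *Sdk1*, an adhesion protein of synapses, was lower in PDGFRA- cells. It was at 4.21, 4.24 and 4.45 log2 CPM in PDGFRA+, 3.57, 3.12 and 3.42 in PDGFRA-, 4.03, 4.18 and 4.00 in GAL1+ and 4.00, 4.02 and 4.01 in GAL1- cells. The PDGFRA groups did not overlap and the GAL1 groups did. Its PDGFRA sort effect was -0.93 (unadjusted p = 0.000110, adjusted p = 0.202), its GAL1 sort effect 0.06 (interval -0.27 to 0.39) and the difference 0.99 (SE 0.21, adjusted p = 0.00778), and it kept its class in all 13 alternatives. *Epb41l3*, which links membrane proteins to the cytoskeleton, kept it in all 13 too (effects 0.32 and -0.66). *Ccdc173* (0.06 and -0.95) and *Dnah2*, a dynein of cilia (0.20 and -0.69), went the same way. *Mki67*, the proliferation marker, was at 9.75, 9.41 and 9.06 in PDGFRA+ and 9.39, 8.40 and 8.40 in PDGFRA- cells, with effects of -0.20 and -0.67, and its difference of 0.47 had an adjusted p of 0.0746.

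Some genes of lymphocytes and dendritic cells had higher levels in PDGFRA- cells in each tumor, although none was called for the PDGFRA sort. The lists of these cells were mixed in the GAL1 sort. The trait was not theirs alone: 6 of 16 macrophage and monocyte genes and 6 of 8 neutrophil genes were higher in PDGFRA- cells in each tumor too. None of the 15 pan-leukocyte or 13 homeostatic microglia genes was. *Acap1*, a regulator of membrane recycling in lymphocytes, was at 1.17, 1.16 and 1.18 log2 CPM in PDGFRA+, 1.78, 2.74 and 2.93 in PDGFRA-, 0.79, 1.84 and 1.34 in GAL1+ and 0.64, 2.02 and 2.13 in GAL1- cells, and only the PDGFRA groups were apart. Its difference was -1.58 (SE 0.43, adjusted p = 0.0217). *Il2ra*, the alpha chain of the interleukin-2 receptor, had effects of 0.05 and 1.44, with a difference of -1.39 that had an adjusted p of 0.0914. *Itgae*, the integrin alpha chain of tissue-resident lymphocytes and of a dendritic cell subset, which pairs with the product of *Itgb7*, was at 3.33, 3.41 and 3.18 in PDGFRA+, 4.97, 4.45 and 5.25 in PDGFRA-, 2.77, 2.75 and 2.47 in GAL1+ and 2.42, 3.93 and 3.78 in GAL1- cells. Its PDGFRA groups were apart, its GAL1 groups overlapped, and the difference was -2.30 (SE 0.50, adjusted p = 0.00882). *Flt3*, a growth factor receptor of dendritic cells, had effects of -0.29 and 1.97 and a difference of -2.27 (adjusted p = 0.0218).

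The lists of these cells were small in level. The summed level of 6 dendritic cell genes was 35.7 to 45.1 CPM in PDGFRA+, 54.2 to 134 in PDGFRA-, 41.1 to 61.5 in GAL1+ and 18.3 to 47.4 in GAL1- cells, and that of 12 T and NK cell genes 32.3 to 41.7, 48.7 to 68.1, 34.3 to 55.3 and 14.4 to 41.6. Of the 6 dendritic cell genes 2 were called for the difference, *Itgae* and *Flt3*, both below 0 (14.5% of all genes were), and none without T5. The other 4 were not called, with differences of 1.67 for *Batf3*, 0.83 for *Zbtb46*, 0.37 for *Xcr1* and -0.15 for *Ccr7*. In the GAL1 sort 3 of the 6 were called above 0 (28.9% of all genes were), *Batf3* (2.15), *Ccr7* (0.95) and *Zbtb46* (0.84). The list's median effects were 0.74 in the GAL1 and 0.79 in the PDGFRA sort, and its median difference was 0.11. Of the 12 T and NK cell genes 2 were called below 0, a share near the 14.5% of all genes. Above 0 there was 1 (16.6% of all genes were), *Klrb1c* (1.82), a receptor of NK cells. The list had a median of -0.16 in the GAL1 and 0.55 in the PDGFRA sort. In the GAL1 sort 2 of the 12 were called above 0 (28.9% of all genes were), *Klrb1c* (2.89) and *Cd4* (1.24). There was 1 below (29.3% of all genes were), *Lck* (-1.10). T4 lay with the other tumors in the PDGFRA sort for 9 of these 12 genes, all higher in PDGFRA- cells in each tumor. Of 8 B cell genes 2 were measured, both called above 0. Of 8 neutrophil genes measured 2 were called above 0 (16.6% of all genes were), *Csf3r* (effects 3.84 and 0.14) and *Mmp9* (1.79 and 0.55). In the PDGFRA sort 5 of the 8 had an unadjusted p under the threshold above 0 (5.74% of all genes did). *S100a8* (-0.03 and 0.99), *S100a9* (0.31 and 1.28) and *Ltf* (0.58 and 2.05) had the larger effect in that sort. Their differences were not called.

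**Figure D5:**
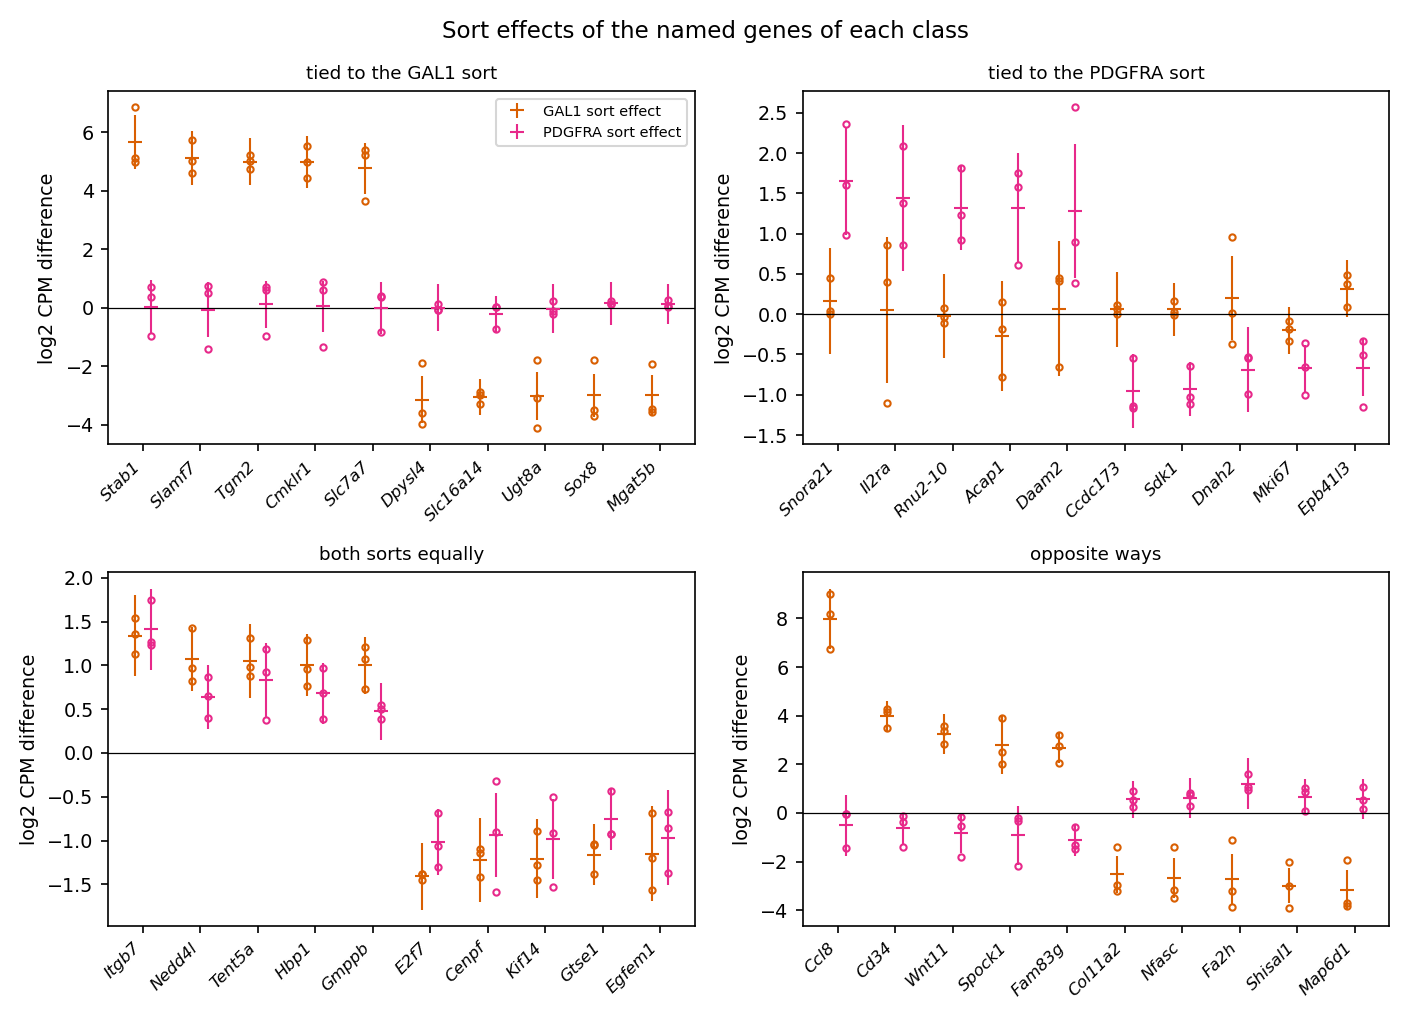
GAL1 and PDGFRA sort effects (log2 CPM differences) of the 10 named genes of each class, with horizontal ticks for the mean, vertical bars for its 95% interval in limma and open circles for the 3 tumors. In the upper left panel PDGFRA sort effects lie around 0, in the upper right panel GAL1 sort effects do, in the lower left both lie on one side of 0 and in the lower right on opposite sides.

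The receptors and ligands behind the sorts did not share 1 pattern. Of the 7 PDGF axis genes 4 were called above 0 and none below: the ligands *Pdgfb* (effects 3.99 and -0.27) and *Pdgfd* (2.70 and -0.45), the mural cell receptor *Pdgfrb* (2.50 and 0.23) and *Pdgfrl* (2.90 and 0.08). Without the block 1 of these was called. *Pdgfa*, the ligand with the highest affinity for PDGFRA alone, had effects of 0.88 and 0.40, and its difference of 0.47 did not pass. Of 7 galectins measured 3 were called above 0: *Lgals1*, *Lgals3* (4.55 and 0.72), a galectin of macrophages, and *Lgals9* (2.94 and 0.13). *Lgals3* stood at 7.27, 7.02 and 7.66 log2 CPM in GAL1+, 1.09, 2.65 and 4.55 in GAL1-, 4.58, 5.58 and 6.64 in PDGFRA+ and 5.97, 5.42 and 7.57 in PDGFRA- cells, and its difference was 3.83 (SE 0.67, adjusted p = 0.0036).

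Of 12 genes of the EGFR family and its ligands, 3 were called below 0: *Erbb4* (effects -2.81 and -0.78), *Tgfa* (-1.88 and -0.62) and *Egfr* (-2.10 and -0.73). *Egfr* was at 9.02, 8.53 and 7.68 log2 CPM in GAL1+, 10.65, 10.46 and 10.42 in GAL1-, 10.50, 10.12 and 9.93 in PDGFRA+ and 10.18, 10.02 and 8.16 in PDGFRA- cells. The GAL1 groups did not overlap, and the PDGFRA groups did. Its difference was -1.37 (SE 0.46, adjusted p = 0.0470). Reads were aligned to the mouse genome, so reads of the human EGFR transgene cannot be told apart from those of the mouse gene. *Hbegf*, another ligand, had effects of -0.16 and 0.10. Of 17 MAPK feedback and output genes 7 were called below 0, among them *Spry1* (-1.48), *Spry2* (-1.50) and *Etv4* (-1.39), and 1 above, *Dusp5* (1.71). Without T4, 1 was called below, and without the block 0 were called below. Of the EGFR family genes 1 was called without the block.

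The remaining lists gave mixed counts. Of 17 Notch pathway genes 8 were called above 0, such as *Mfng* (3.25), a glycosyltransferase that modifies Notch, and 4 below, such as the ligand *Dll3* (-2.54), and without T3 these were 3 and 2. Of 19 mesenchymal state genes 8 were called above 0, of 20 interferon-stimulated genes 9, of 11 MHC class I genes 6, of 18 immediate early genes 8 above and 3 below, and of 20 collagen and basement membrane genes 3 above. Without T4 the counts above 0 of these 5 lists were 4, 3, 1, 3 and 6. For the collagen and basement membrane list, 3 of 20 was a share near the 16.6% of all genes. Of 19 hypoxia and glycolysis genes 6 were called above 0, such as the hexokinase *Hk2* (1.73), and 1 below, *Ddit4* (-1.33), with effects of -0.78 and 0.55, and without T4 0 were called above. Of 11 astrocyte genes 2 were called below 0, a share near the 14.5% of all genes. Of 4 ependymal genes 2 were called below 0, but 0 without T3, T4 or T5 in turn or without the tumor block. None of 5 erythroid and 13 mitochondrially encoded genes was called, and their median differences were 0.04 and 0.21.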

How the data were processed

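RNA was taken from EGFR+ cells sorted from 3 mouse GBMs, and libraries were made from 1 ng of RNA with the SMARTer Stranded Total RNAseq v3 Pico kit and sequenced on a NextSeq550. The authors used fastp for trimming, STAR (two-pass, mm39) for alignment and featureCounts for exon counts, with multi-mapping reads as fractions, required a CPM over 1 in 3 or more samples, and ran TMM and voom. The deposited table holds their log2 CPM of 18180 genes in 12 libraries, and 0 columns were left unmapped. Depth was worked out by setting the lowest value of a library to a count of 0 with the offset of 0.5, and 41.3% to 59.2% of the values came out whole (within 0.01), so no count test was run. The floor was 3 reads, for counting error only.

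All 12 libraries entered 1 limma 3.58.1 fit (R 4.3.3) with the 4 populations and with tumor as block, eBayes with a trend (residual degrees of freedom 6, prior 3.49), two-sided, Benjamini-Hochberg adjusted over all genes. Libraries of the same tumor deviated together (mean Pearson r 0.486 over 18 pairs, from 0.140 to 0.662), and the pairing comes from the tumor numbers in the labels. The members and the 40 lists were chosen with earlier results of these data known, so lists are described by counts and medians with no test. Named genes are *Pdgfra*, *Lgals1*, *Ptprc* and *Egfr*, the 8 largest differences in each direction, the 5 largest of each class in each direction, the 2 largest and the smallest of each list, and all PDGF, galectin and EGFR family genes, with unnamed gene models left out and a mean log2 CPM of at least 1 for the differences and classes. Some items of the genotype and of the results are not reported here. Other list members, such as *Olig2*, with *Rn7sk*, and the grouping of short RNAs were chosen after their values were seen. The fit was checked on simulated data. Alternatives were a fit with no block, per-tumor differences, no trend, robust estimation, voom weights, a pseudocount of 1, a level filter, quantile normalization, median centring, each tumor left out, the PDGFRA- library of T5 left out and other class bounds. Promoters and gene types came from RefSeq tables. Figures were drawn with matplotlib 3.10.9 in Python 3.11.15.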

Additional observations from a re-analysis of the deposited data

Results flagged for a closer look

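For the 10 genes with the largest GAL1 sort effects, 5 in each direction, that were named from the class of opposite effects, the GAL1 sort effect had one sign in each of the 3 tumors and the PDGFRA sort effect the other, and the difference of the effects passed the limma test. With a positive difference these were *Ccl8* (8.49, SE 0.78), *Cd34* (4.61, SE 0.41), *Wnt11* (4.09, SE 0.51), *Fam83g* (3.80, SE 0.40) and *Spock1* (3.71, SE 0.76). Adjusted p-values ran from 0.0013 for *Ccl8* to 0.00696 for *Spock1*. The PDGFRA sort effect of *Ccl8* was -0.06 for T3, -1.44 for T4 and -0.03 for T5, so its opposite sign rests on T4. That of *Fam83g* was -0.58, -1.48 and -1.32.

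With a negative difference these were *Fa2h* (-3.94, SE 0.67), *Map6d1* (-3.74, SE 0.52), *Shisal1* (-3.65, SE 0.46), *Nfasc* (-3.29, SE 0.52) and *Col11a2* (-3.09, SE 0.49). *Fa2h* had PDGFRA sort effects of 0.93, 1.08 and 1.60, and *Shisal1* had 0.09, 1.03 and 0.88. These genes were named for their large GAL1 sort effects within a class that was itself defined by opposite signs, so the signs are a description. Other genes named above, such as *Enpp6*, *Myrf* and *Mbp*, were of the same class.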

How the results depend on the processing

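The difference was called for 5651 genes with the tumor block and for 2592 without the replicate block, and leaving out samples gave 1896 to 7252, the lowest without T4 and the highest without the PDGFRA- library of T5. The share above 0 was 53.3%, 63.5% without the block, 78.8% without T4 and 46.6% under quantile normalization, which moved the median difference from -0.06 to -0.11. The class tied to the GAL1 sort held 1094 genes without the block, 559 to 4661 when samples were left out and 1023 at an interval bound of 0.5. The class tied to the PDGFRA sort held 22 without the block, 65 from per-tumor differences, 27 to 139 when samples were left out, 27 at a bound of 0.5 and 287 at 1.5. The class of equal effects held 275 without the block, 420 to 858 when samples were left out, 68 at a bound of 0.5 and 1475 at 1.5. The opposite class held 118 without the block, 113 with a pseudocount of 1, 113 to 369 when samples were left out, 428 with no minimum effect and 59 with a minimum of 1. The difference of *Pdgfra* was -1.37 with per-tumor differences (adjusted p = 0.0116) and -1.70 under quantile normalization (0.0379), which passed, and -1.88 to -1.01 when samples were left out. That of *Lgals1* was 1.02 without the block (0.0815) or the trend (0.0601) and 0.83 under quantile normalization (0.0944), which did not pass, and 0.87 to 1.27 when samples were left out. The cause of these changes was not tested. Counts of list genes under other settings were added after seeing the data. No gene was called for the PDGFRA sort under any of these alternatives, and no named gene called for the difference changed sign. Depth limits the size of the effect for genes at 3 reads or fewer in a library, such as *Mog* in 1 GAL1+ library.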
